A study of Rattus norvegicus with 6 samples.

Results

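The genes described here are the collagen chains of rat bone marrow mesenchymal stem cells. They were chosen by symbol, as every row of the deposited gene table named Col, a type number, the letter a and a chain number. This family was picked with earlier results of these data known. The rule found 42 of the 19266 genes in the table. Poly(A) RNA was sequenced in 6 libraries of the rat cell line SCSP-402, whose cell type the labels give as Bone Marrow Mesenchymal Stem Cells and whose genotype they give as WT. In both groups the cells shared a co-culture with BV2, a microglial line of mouse origin, in a series that asked how the stem cells restrain microglial activation. 3 libraries were labelled Non-LPS-stimulated and are called untreated here, and 3 were labelled LPS-stimulated, after lipopolysaccharide (LPS), a bacterial cell wall component sensed by toll-like receptor 4. Neither the LPS dose and time nor how the co-cultured lines were separated is given in the sources used here. All libraries came from 1 cell line and 1 labelled batch. No label says that replicates were separate cultures, so each p-value covers only the spread among these libraries, and that spread may be technical.

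Collagens are the main structural proteins of connective tissue. Each molecule is a triple helix of chains, made in the endoplasmic reticulum, where prolyl and lysyl hydroxylases modify the chains before the helix folds. Fibrillar types are trimmed at their ends outside the cell, assemble into fibrils and are cross-linked by lysyl oxidases. FACITs (fibril-associated collagens with interrupted triple helices) sit on the surface of those fibrils, type IV forms the sheet of basement membranes, types VIII and X form short-chain networks and type VI forms beaded filaments around cells. Marrow stromal cells are known as strong producers of type I and type III collagen.

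Each gene has an estimated count and an FPKM value, a level scaled for gene length and sequencing depth, in each library. Totals ran from 77.4 M to 82.0 M count units, or 19.3 M to 20.5 M fragments if 4 units are taken as a fragment. Untreated replicate 1 stood apart from its group. On the first principal component it lay at -11.0, against -26.7 and -26.6 for the other untreated libraries and 19.5 to 22.5 for the LPS libraries. The stromal label was checked on 12 mesenchymal markers, of which Lepr alone stayed under 1 FPKM in every library, while Thy1 stood at 238 ± 2.38 FPKM untreated and 280.2 ± 3.11 FPKM with LPS (SD, n = 3). Of the 10 tested, 7 rose (background 20.1% of all tested genes) and 1 fell (background 19.0%) with LPS. Of 17 microglia and macrophage markers in the table, 15 stayed under 1 FPKM in every library, and Ptprc, C1qa, C1qb and Trem2 were at 0 in all 3 LPS libraries. Others of these 15 were higher with LPS at low levels, among them Adgre1, from 0.0453 ± 0.0414 to 0.329 ± 0.0161 FPKM, Itgam, from 0.00655 ± 0.0113 to 0.0625 ± 0.0156 FPKM, and Spi1, from 0.0717 ± 0.0626 to 0.135 ± 0.0276 FPKM, while Aif1 was at 0 in all untreated libraries and at 0.0375 ± 0.0342 FPKM with LPS. The markers above 1 FPKM were Tmem119, a gene also known from bone-forming cells, at 64.7 ± 2.14 FPKM untreated and 69.4 ± 1.20 FPKM with LPS, and Fcer1g, at 9.62, 1.20 and 7.01 FPKM in untreated libraries 1 to 3 and 27.4, 2.29 and 2.98 FPKM in LPS libraries 1 to 3. The 17 markers summed to 67.3 to 74.8 FPKM per untreated library and 72.8 to 98.3 FPKM per LPS library. Most of each sum was Tmem119, and the highest sum was that of LPS library 1, where Fcer1g stood at 27.4 FPKM. In bulk RNA of this kind, fewer cells of a type and less RNA per cell cannot be told apart.

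With LPS, RNA of every tested fibrillar collagen was lower relative to the rest of the library, and that of the type IV chains Col4a1 and Col4a2 was higher. Of the 42 chains, 24 reached an FPKM of 1 in 3 or more libraries and were tested, and 21 of them passed at an adjusted p under 0.05 (background 39.1% of the 11559 tested genes). 17 fell, where 19.0% of tested genes fell, and 4 rose, where 20.1% did. The median log2 fold change of the 24 was -0.43, and that of all tested genes was 0.00012. In 21 of the 24 the FPKM of the groups did not overlap, where 53.3% of tested genes had such groups. LPS lay above untreated in 5 of the 24 (background 32.8% of tested genes) and below it in 16 of the 24 (background 20.6%). Leaving out untreated replicate 1 gave 18 lower and 4 higher chains. With limma on log2(FPKM + 1), 16 chains were lower and 5 higher, and the higher part of all calls was 63.3%, against 51.3% in the reported fit. Of the 24, 23 passed the filter in all 6 libraries, and Col9a3 passed it through the untreated libraries alone, so its difference was partly built into the filter.

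**Figure D1:**
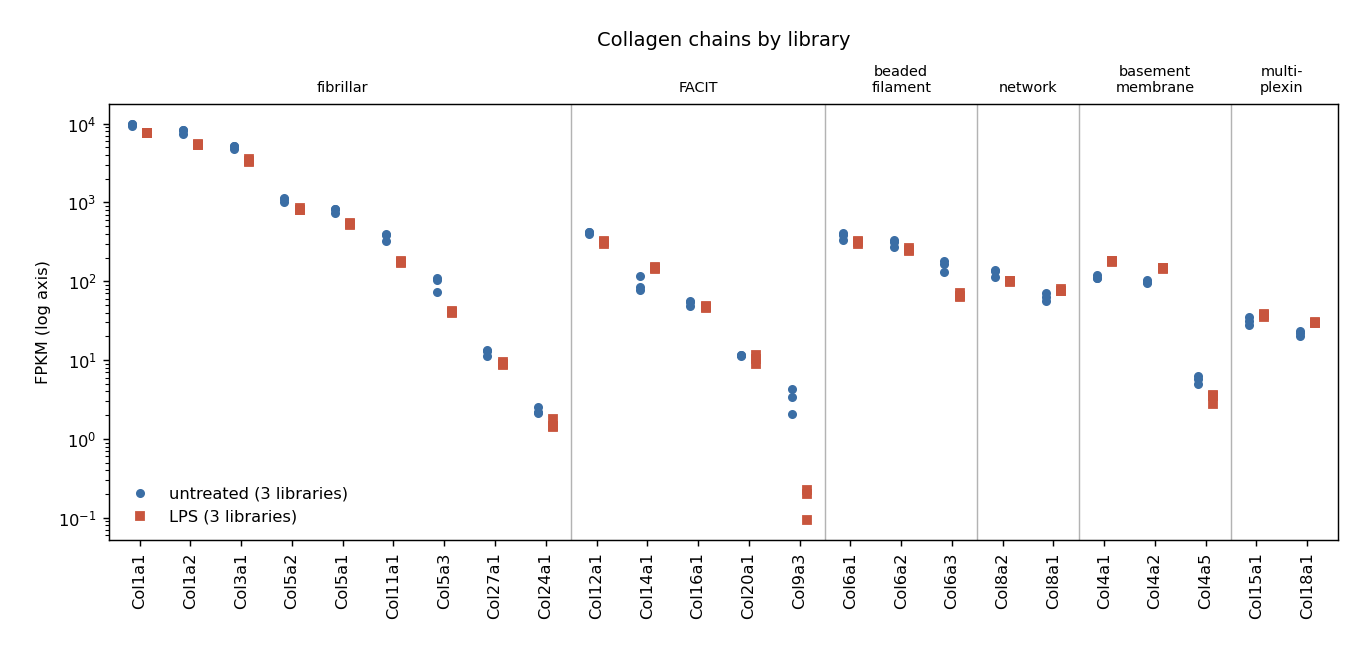
FPKM on a log axis of the 24 tested collagen chains in each of the 3 untreated (circles) and 3 LPS (squares) libraries, grouped by collagen class and ordered by mean level. Col1a1, at up to 9927 FPKM, is the most abundant and Col9a3 is among the least, and the LPS values of all 9 fibrillar chains lie below the untreated ones.

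Collagen took up a large part of these transcriptomes. The 42 chains together held 8.22%, 9.18% and 9.21% of the summed FPKM in the untreated libraries and 6.12%, 6.13% and 6.36% in the LPS libraries. All 3 LPS libraries lay below all 3 untreated ones, and untreated replicate 1 was the lowest of its group. The mean share went from 8.87% ± 0.562 to 6.21% ± 0.134 (SD, n = 3). Of the summed counts, which weight long genes more, the chains went from 16.2% ± 0.890 to 11.9% ± 0.179. Col1a1, Col1a2 and Col3a1, the chains of types I and III, made up 84.3% ± 0.273 of collagen FPKM without LPS and 83.2% ± 0.257 with it. The part of the type IV chains in the collagen pool went from 0.806% ± 0.0488 to 1.67% ± 0.00459, and that of the multiplexins Col15a1 and Col18a1 from 0.196% ± 0.0132 to 0.340% ± 0.00747. The share of beaded filament chains in the pool stood at 3.10% ± 0.193 without LPS and 3.20% ± 0.0726 with it. In counts it went the other way, from 3.45% ± 0.246 to 3.25% ± 0.0772. The pool itself fell, so parts of it differ from shares of the library. Of all summed FPKM, type IV chains went from 0.0714% ± 0.00367 to 0.104% ± 0.00222. Multiplexins went from 0.0174% ± 0.00162 to 0.0211% ± 0.000850 and beaded filament chains from 0.276% ± 0.0333 to 0.199% ± 0.00831. As sums over the chosen genes these shares were not tested.

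**Figure D2:**
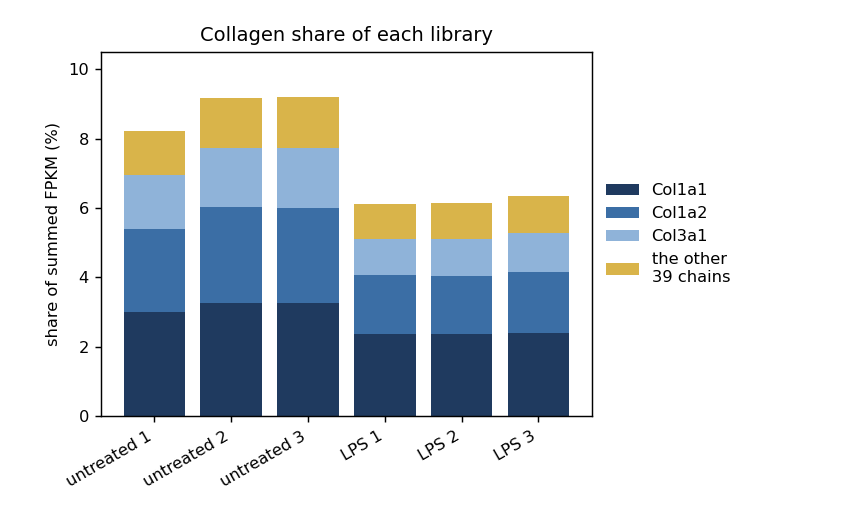
Share of the summed FPKM (%) taken by collagen chains in each of the 6 libraries, stacked as Col1a1, Col1a2, Col3a1 and the other 39 chains. The bars of the untreated libraries reach 8.22% to 9.21% and those of the LPS libraries 6.12% to 6.36%.

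All 9 tested fibrillar chains, of 11 in the table, were lower with LPS (background 19.0% of tested genes). Col1a1 (ENSRNOG00000003897), the main chain of type I collagen, lies on chromosome 10 from 79883622 to 79900624 in mRatBN7.2. By mean FPKM over the 6 libraries it was the most abundant of all tested genes. It stood at 9197, 9927 and 9911 FPKM in untreated libraries 1 to 3 and 7541, 7494 and 7516 FPKM in LPS libraries 1 to 3. The groups did not overlap, and Col1a1 was 1.33-fold lower (log2 fold change -0.41 ± 0.042 SE, adjusted p = 0.000229). Its partner chain Col1a2, on chromosome 4 from 32563381 to 32598867, stood at 7387, 8398 and 8310.3 FPKM in untreated libraries 1 to 3 and 5343, 5365 and 5526 FPKM in LPS libraries 1 to 3. It was 1.54-fold lower (log2 fold change -0.62 ± 0.055 SE, adjusted p = 0.000132), and with quantile normalization, which gives every library the same distribution of values, it did not pass (log2 fold change -0.22, adjusted p = 0.0830). Col3a1, which forms the type III homotrimer found in the same fibrils as type I, stood at 4819, 5243 and 5239 FPKM in untreated libraries 1 to 3 and 3285, 3379 and 3545 FPKM in LPS libraries 1 to 3. It was 1.55-fold lower (log2 fold change -0.63 ± 0.049 SE, adjusted p = 8.69e-05), and its LPS values lay well under the untreated ones. Under the same quantile normalization the log2 fold changes of Col1a1 and Col3a1 shrank to -0.19 and -0.22, both still past the threshold (adjusted p = 0.00406 and 0.00181). Col1a1, Col1a2 and Col3a1 ranked 1, 3 and 4 by mean FPKM among tested genes. Quantile normalization sets values by rank, so it can show their fall only as a change of rank.

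The type V chains, which regulate the start and width of type I fibrils, fell too. Col5a1, the chain common to most type V molecules, stood at 725, 836 and 833 FPKM in untreated libraries 1 to 3 and 528, 514 and 552 FPKM in LPS libraries 1 to 3 and was 1.55-fold lower (log2 fold change -0.64 ± 0.064 SE, adjusted p = 0.000213). Col5a2 stood at 1012, 1146 and 1117 FPKM in untreated libraries 1 to 3 and 812, 793 and 851 FPKM in LPS libraries 1 to 3 and was 1.38-fold lower (log2 fold change -0.46 ± 0.057 SE, adjusted p = 0.000476). Its gene lies tail to tail with Col3a1 on chromosome 9, with 38188 bp between their ends. Col5a3, the less widespread type V chain, stood at 73.3, 103 and 111 FPKM in untreated libraries 1 to 3 and 39.7, 41.0 and 42.0 FPKM in LPS libraries 1 to 3. It was 2.43-fold lower (log2 fold change -1.28 ± 0.14 SE, adjusted p = 0.000273), with untreated replicate 1 between the groups, and 2.72-fold lower without that library. Col11a1, a type XI chain known from the core of cartilage fibrils, stood at 326, 393 and 383 FPKM in untreated libraries 1 to 3 and 175, 169 and 181 FPKM in LPS libraries 1 to 3. Its highest LPS value lay far below its lowest untreated value, and it was 2.18-fold lower (log2 fold change -1.12 ± 0.074 SE, adjusted p = 5.38e-05).

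Col27a1 and Col24a1, also fibrillar chains, were the least abundant of the 9 tested. Col27a1 went from 12.6 ± 1.12 to 9.06 ± 0.323 FPKM (SD, n = 3) and Col24a1 from 2.30 ± 0.211 to 1.54 ± 0.199 FPKM, which made them 1.44-fold and 1.55-fold lower (adjusted p = 0.000728 and 0.00355). Over the class, log2 fold changes ran from -1.28 to -0.41, and from -1.44 to -0.45 without untreated replicate 1. In all 9 every LPS value lay below every untreated value (background 20.6% of tested genes). Col2a1, the cartilage chain, and Col11a2 were under the filter. Col11a2 stood at 0.663, 0.840 and 1.03 FPKM in untreated libraries 1 to 3 and 0.302, 0.342 and 0.386 FPKM in LPS libraries 1 to 3.

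**Figure D3:**
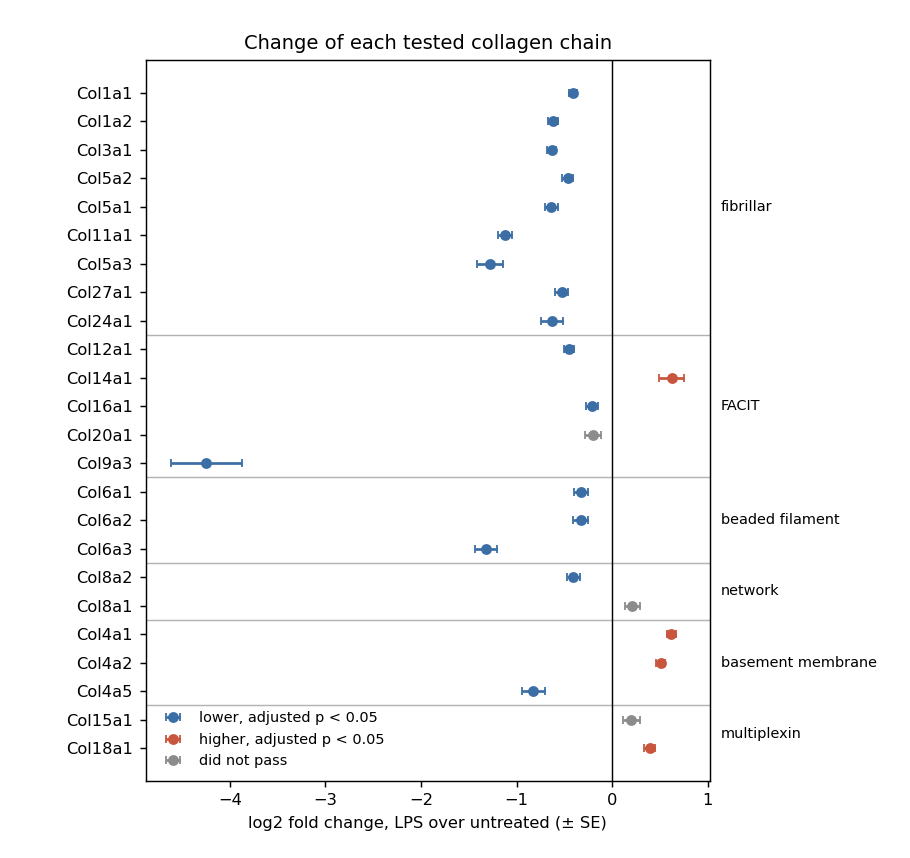
Log2 fold change, LPS over untreated, of each tested collagen chain, with a standard error computed from its edgeR F statistic, grouped by class. Fibrillar and beaded filament chains lie to the left of 0, Col4a1, Col4a2, Col14a1 and Col18a1 lie to the right as higher, and Col9a3 lies far to the left at -4.25.

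The FACITs split in direction. The table held 8, of which 5 were tested. Of these, 3 fell (background 19.0% of tested genes) and 1 rose (background 20.1%), so the number that rose was at the background. Col14a1, which binds type I fibrils and limits their lateral growth, stood at 116, 77.6 and 83.4 FPKM in untreated libraries 1 to 3 and 143, 146 and 153 FPKM in LPS libraries 1 to 3. It was 1.54-fold higher (log2 fold change 0.62 ± 0.13 SE, adjusted p = 0.00593), and 1.76-fold without untreated replicate 1, which lay 53.9% of the way from the mean of untreated replicates 2 and 3 to the LPS mean. Col12a1, also a fibril surface collagen, went the other way. It stood at 395, 419.7 and 416 FPKM in untreated libraries 1 to 3 and 312, 293 and 328 FPKM in LPS libraries 1 to 3 and was 1.36-fold lower (log2 fold change -0.45 ± 0.052 SE, adjusted p = 0.000384). Col16a1, a minor FACIT, had overlapping groups at 52.9 ± 3.77 FPKM untreated and 47.3 ± 1.76 FPKM with LPS, and its call (adjusted p = 0.0240) was lost in 6 of 17 alternatives, with adjusted p up to 0.0930. These included leaving out untreated replicate 2 or 3 or LPS replicate 1 or 3.

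Col9a3, a type IX chain that coats the type II fibrils of cartilage, had the greatest fall among the tested chains. It stood at 2.05, 4.28 and 3.36 FPKM in untreated libraries 1 to 3 and 0.0945, 0.224 and 0.202 FPKM in LPS libraries 1 to 3. It was 19.0-fold lower (log2 fold change -4.25 ± 0.37 SE, adjusted p = 0.000120), from 541 fragments over the untreated libraries to 30.0 over the LPS libraries at 4 count units a fragment. Its log2 fold change was -1.82 with limma on log2(FPKM + 1), where the pseudocount shrinks low genes. It was -1.93 with quantile normalization, which was run on values with the same pseudocount. Its partner Col9a2, just outside the filter, stood at 0.800, 1.31 and 1.39 FPKM in untreated libraries 1 to 3 and 0.563, 0.744 and 0.552 FPKM in LPS libraries 1 to 3, with every LPS value under every untreated one. Col9a1 was not analysed here. Col20a1 stood at 11.4 ± 0.207 FPKM untreated and 10.3 ± 1.30 FPKM with LPS and did not pass (adjusted p = 0.0851). It passed as lower without untreated replicate 1 (adjusted p = 0.0494), without LPS replicate 2 (0.0250) and with DESeq2 (0.0359).

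All 3 tested beaded filament chains, of 6 in the table, fell (background 19.0% of tested genes). Col6a1 and Col6a2 lie on the same strand of chromosome 20 with 97169 bp between them and encode the short chains of type VI collagen. Col6a1 stood at 331, 388 and 407 FPKM in untreated libraries 1 to 3 and 299.5, 311 and 319 FPKM in LPS libraries 1 to 3. Col6a2 stood at 271, 315 and 330.4 FPKM in untreated libraries 1 to 3 and 241, 252 and 262 FPKM in LPS libraries 1 to 3. They were 1.25-fold and 1.26-fold lower (adjusted p = 0.00961 and 0.00833). In both, untreated replicate 1 lay 75.8% and 71.8% of the way to the LPS mean, reckoned as for Col14a1. Col6a3, the long chain of the molecule, stood at 132, 168 and 180.4 FPKM in untreated libraries 1 to 3 and 65.3, 62.4 and 71.2 FPKM in LPS libraries 1 to 3. It was 2.50-fold lower (log2 fold change -1.32 ± 0.11 SE, adjusted p = 0.000117), after Col9a3 the greatest fitted fall of a tested chain, close to that of Col5a3. Col6a4, Col6a5 and Col6a6, which can stand in for Col6a3 in type VI molecules, had no more than 0.0273 FPKM in any library.

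Type IV chains, the sheet-forming collagens of basement membranes, moved in opposite directions. Col4a1 and Col4a2 make up the type IV molecule present in most basement membranes. Col4a1, on chromosome 16 from 78183533 to 78294412, stood at 111, 109 and 119 FPKM in untreated libraries 1 to 3 and 178, 177 and 182 FPKM in LPS libraries 1 to 3. It was 1.53-fold higher (log2 fold change 0.62 ± 0.046 SE, adjusted p = 7.27e-05). Col4a2, on the other strand of chromosome 16 from 78047602 to 78183839, stood at 97.8, 95.1 and 104 FPKM in untreated libraries 1 to 3 and 142, 146 and 149 FPKM in LPS libraries 1 to 3 and was 1.42-fold higher (log2 fold change 0.51 ± 0.045 SE, adjusted p = 0.000132). In both genes the groups were far apart, and untreated replicate 1 lay with the other untreated libraries. The 2 gene models overlap by 307 bp at their starts. Library preparation marked the strand, but the strand setting of the counting is not known, so the reads of the overlap may be shared.

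Col4a5, which joins other type IV chains in kidney and smooth muscle basement membranes, fell. It stood at 4.96, 5.70 and 6.33 FPKM in untreated libraries 1 to 3 and 3.54, 2.81 and 3.57 FPKM in LPS libraries 1 to 3 and was 1.77-fold lower (log2 fold change -0.83 ± 0.12 SE, adjusted p = 0.00111). Its head-to-head neighbour Col4a6 and the pair Col4a3 and Col4a4 were under the filter, none above 0.419 FPKM. Because type IV collagen is made by vessel and fat cells as well, markers of both were read beside it. Of 7 endothelial markers present, 5 stayed under 1 FPKM in every library, Pecam1 and Cdh5 were at 0 in all untreated libraries, and the markers summed to 7.78 to 9.12 FPKM per untreated library and 5.47 to 5.63 FPKM per LPS library. Among them Erg, an endothelial transcription factor, went from 3.71 ± 0.522 to 0.694 ± 0.0527 FPKM (SD, n = 3), while Egfl7 stood at 4.11 ± 0.140 FPKM untreated and 4.50 ± 0.0274 FPKM with LPS. Of 7 adipocyte markers, 6 stayed under 1 FPKM, Lep was at 0 in all untreated libraries, and they summed to 1.26 to 2.13 and 4.12 to 4.39 FPKM, most of it from Cfd. The part of fat cell RNA in the rise of Col4a1 and Col4a2 was not tested.

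Promoter windows show the shared start of these genes. RefSeq promoters (build GRCr8, 250 bases before to 50 bases after each start) were matched by symbol for 33 of the 42 chains. In that build the starts of Col4a2 and Col4a1 lie head to head 77 bp apart on chromosome 16, so 1 window holds both. The starts of Col4a4 and Col4a3 were 413 bp apart and those of Col4a6 and Col4a5 1415 bp apart. Printed are the windows of the most abundant chain, of the chain with the greatest rise and of the chain with the greatest fall among called chains with an entry. Col1a1, Col14a1 and Col9a3 had none. The windows, each 5′ to 3′ along the gene's own strand, lie at chr4:33518307-33518606 (plus strand, Col1a2), chr16:84885347-84885646 (plus strand, Col4a1) and chr9:98886909-98887208 (minus strand, Col6a3). Capitals mark matches, on either strand, to CCAAT (the CCAAT box), TATAAA (the TATA box), GGGCGG (the GC box) or an NF-kB-like site (GGG, any 2 bases, then TTTCC).
Col1a2: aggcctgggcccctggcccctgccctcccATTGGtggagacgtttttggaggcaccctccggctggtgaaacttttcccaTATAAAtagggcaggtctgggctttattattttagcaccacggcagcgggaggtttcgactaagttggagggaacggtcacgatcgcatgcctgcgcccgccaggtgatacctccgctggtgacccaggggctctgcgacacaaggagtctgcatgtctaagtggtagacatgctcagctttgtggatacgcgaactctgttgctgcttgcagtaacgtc
Col4a1: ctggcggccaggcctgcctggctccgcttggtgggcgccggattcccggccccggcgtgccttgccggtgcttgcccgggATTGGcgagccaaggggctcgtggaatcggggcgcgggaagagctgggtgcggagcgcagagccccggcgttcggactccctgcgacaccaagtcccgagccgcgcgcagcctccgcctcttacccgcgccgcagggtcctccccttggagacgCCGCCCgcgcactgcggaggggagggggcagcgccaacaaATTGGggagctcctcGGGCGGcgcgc
Col6a3: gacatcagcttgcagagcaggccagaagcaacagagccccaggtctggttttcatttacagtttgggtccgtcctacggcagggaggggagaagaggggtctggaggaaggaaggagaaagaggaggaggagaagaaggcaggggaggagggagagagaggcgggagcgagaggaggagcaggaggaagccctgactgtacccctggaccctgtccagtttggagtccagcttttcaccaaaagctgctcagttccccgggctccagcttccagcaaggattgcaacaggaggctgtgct
Counted from the annotated start, the Col1a2 window holds a CCAAT match on the minus strand at -221 and a TATAAA match at -170. The Col4a1 window holds 2 CCAAT matches, at -170 and 25, 2 GGGCGG matches, at -16 and 40, and no TATAAA. The Col6a3 window holds none of the 4 patterns. In these windows no match overlapped another. Over all 33469 promoters, CCAAT was present in 37.5%, TATAAA in 14.2%, GGGCGG in 33.1% and the NF-kB-like site in 1.53%. Of the chains with a window, CCAAT was in 2 of 3 that rose (Col4a1 and Col4a2, whose windows overlap) and in 3 of 12 that fell (Col1a2, Col11a1 and Col5a3). GGGCGG was in 3 of 3 and 8 of 12, TATAAA in 0 of 3 and 1 of 12, and the NF-kB-like site in 0 of both. These matches describe letters in the windows and were not tested.

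Among short-chain network collagens, Col8a2 fell and Col8a1 did not pass. Both are known from vessel walls and the cornea. Col8a2 stood at 115, 133 and 139 FPKM in untreated libraries 1 to 3 and 98.2, 102 and 102 FPKM in LPS libraries 1 to 3 and was 1.32-fold lower (log2 fold change -0.41 ± 0.072 SE, adjusted p = 0.00275). Col8a1 stood at 56.4, 62.6 and 71.3 FPKM in untreated libraries 1 to 3 and 74.6, 74.5 and 79.0 FPKM in LPS libraries 1 to 3. Its LPS values lay above its untreated ones (log2 fold change 0.21 ± 0.083 SE, adjusted p = 0.0746), and it passed in 5 of 17 alternatives. These were DESeq2 (0.0298), limma on log2(FPKM + 1) (0.0355) or log2(FPKM + 0.1) (0.0365), the replicate block (0.0367) and leaving out untreated replicate 3 (0.0105). Col10a1, the marker chain of hypertrophic cartilage, was under the filter, at most 0.200 FPKM.

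The multiplexins, proteoglycan collagens of the basement membrane zone, were represented by both of their chains. Col18a1, whose end fragment is endostatin, stood at 22.3, 20.2 and 23.1 FPKM in untreated libraries 1 to 3 and 29.5, 29.4 and 30.3 FPKM in LPS libraries 1 to 3. It was 1.31-fold higher (log2 fold change 0.39 ± 0.056 SE, adjusted p = 0.000981), with separate groups. Col15a1 stood at 31.2 ± 3.83 FPKM untreated and 37.1 ± 2.01 FPKM with LPS (SD, n = 3), with overlapping groups and an adjusted p of 0.107. It passed as higher without untreated replicate 3 (adjusted p = 0.0178) and with the replicate block (0.0310).

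The 18 chains under the filter were low in both groups. They were 3 FACITs, 3 type IV chains, 3 beaded filament chains, 2 fibrillar chains, 1 network chain, all 4 transmembrane chains, the anchoring fibril chain Col7a1 and Col26a1. Their highest single value was 1.39 FPKM (Col9a2), 15 of them stayed under 0.5 FPKM in every library, and none was at 0 in all 6. Col24a1, at 2.22, 2.15 and 2.54 FPKM in untreated libraries 1 to 3 and 1.45, 1.40 and 1.77 FPKM in LPS libraries 1 to 3, was the chain nearest to the filter that passed it in every library. Without an FPKM filter, 3 of the 18 were lower and none higher, where 10.9% of the 19266 genes were lower and 11.9% higher. These were Col11a2 (log2 fold change -1.34, adjusted p = 0.00181), Col9a2 (-0.96, adjusted p = 0.0234) and Col4a4 (-1.42, adjusted p = 0.0331). At an assumed 4 count units a fragment, they had 357, 237 and 152 fragments over the untreated libraries. Col2a1, with 75.5 untreated and 14.8 LPS fragments on the same reckoning, did not pass (adjusted p = 0.101).

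Chains that share a molecule or a fibril were also compared by their ratio in FPKM, which does not depend on how libraries are scaled. The 8 pairs with both chains past the filter were compared by exact two-sided permutation tests, which cannot give a p below 0.1 with 3 libraries a group. The ratio of Col1a1 to Col1a2 was 1.24, 1.18 and 1.19 without LPS and 1.41, 1.40 and 1.36 with it. Every LPS ratio was higher than every untreated one. The ratio of Col6a3 to Col6a1 was 0.397, 0.432 and 0.444 without LPS and 0.218, 0.200 and 0.223 with it, a change to 0.504 times the untreated ratio. In contrast, the ratio of Col6a1 to Col6a2 was 1.22, 1.23 and 1.23 without LPS and 1.25, 1.24 and 1.22 with it. Its groups overlapped (exact permutation p = 0.4), with a log2 difference of 0.007.

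The ratio of Col8a1 to Col8a2 was 0.492, 0.469 and 0.514 without LPS and 0.760, 0.730 and 0.774 with it, 1.54 times the untreated ratio. For Col5a1 to Col5a2 it was 0.716, 0.730 and 0.746 without LPS and 0.650, 0.649 and 0.649 with it. Relative to Col1a1, Col3a1 and Col5a1 were lower in every LPS library than in any untreated one. The Col3a1 to Col1a1 ratio went from 0.527 ± 0.00257 to 0.453 ± 0.0181 and that of Col5a1 to Col1a1 from 0.0824 ± 0.00309 to 0.0707 ± 0.00249 (SD, n = 3). Col4a1 to Col4a2 went from 1.14 ± 0.00597 to 1.23 ± 0.0237. The 7 pairs other than Col6a1 to Col6a2 had groups that did not overlap and an exact permutation p of 0.1, or 0.114 adjusted over the 8 pairs, which does not reach 0.05. Among single tested genes, 53.3% had groups that did not overlap. The share over pairs of other genes was not computed, so the number of such pairs has no background.

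**Figure D4:**
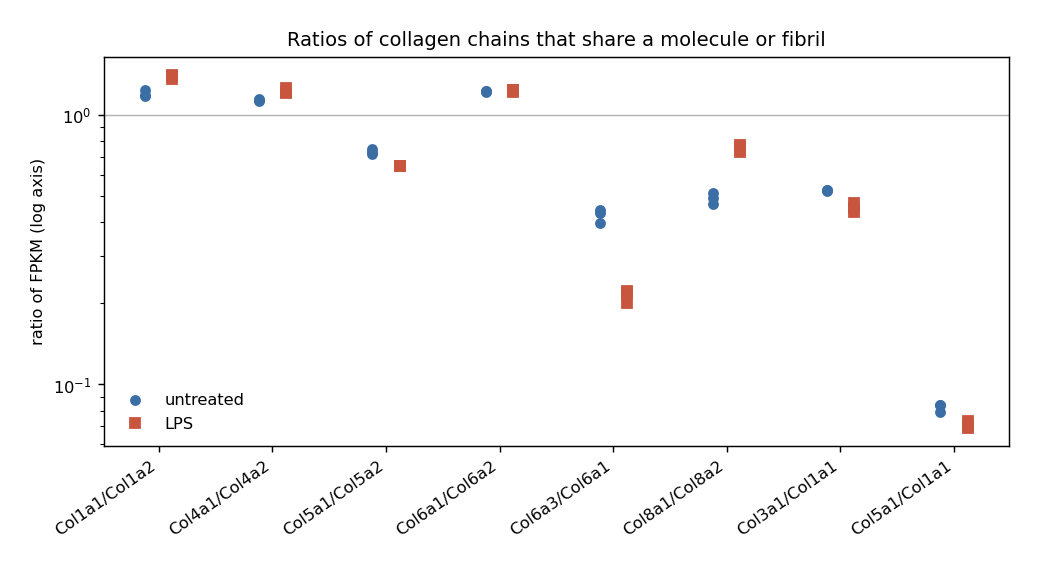
Ratio of FPKM, on a log axis, for the 8 pairs of collagen chains in each untreated (circles) and LPS (squares) library. The ratio of Col6a1 to Col6a2 overlaps between groups, while the mean of Col6a3 to Col6a1 goes from 0.424 to 0.214 and that of Col8a1 to Col8a2 from 0.492 to 0.755.

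Untreated replicate 1 lay part of the way to the LPS libraries in all 17 chains that fell and in some that rose. Over the 17 chains that fell, its place on the path from the mean of untreated replicates 2 and 3 to the LPS mean was a median 39.1%, with a range from 15.6% to 81.8%. For all 21 called chains, of both directions, the median was 38.1%, and for all 4524 called genes, also of both directions, 19.4%. For Col4a1 and Col4a2 it lay at -4.23% and -3.32%, for Col18a1 at 7.69% and for Col14a1, the other chain that rose, at 53.9%. Col4a5, the type IV chain that fell, lay at 39.1%. Without it, the 21 called chains kept their direction and their call.

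Genes that make, modify and cross-link collagen went in both directions. Of 32 in the table, 30 were tested, 10 rose (background 20.1% of tested genes), 7 fell (background 19.0%) and 13 did not pass, with a median log2 fold change of -0.014. With quantile normalization the split was 8 higher and 10 lower. This list and those of receptors and proteases below were chosen with earlier results of these data known. P4ha2, a catalytic subunit of prolyl 4-hydroxylase, stood at 102, 82.7 and 75.6 FPKM in untreated libraries 1 to 3 and 145, 157 and 151 FPKM in LPS libraries 1 to 3 and rose 1.68-fold (log2 fold change 0.75 ± 0.095 SE, adjusted p = 0.000573). Lox, a lysyl oxidase that starts cross-linking, stood at 503, 462 and 439 FPKM in untreated libraries 1 to 3 and 719.8, 700.1 and 749 FPKM in LPS libraries 1 to 3 and rose 1.49-fold (log2 fold change 0.58 ± 0.054 SE, adjusted p = 0.000155). Tll1, a protease related to Bmp1, rose 1.46-fold (adjusted p = 0.000101) and Adamts3, which trims procollagen, rose 2.05-fold from 0.561 ± 0.196 to 1.19 ± 0.0909 FPKM. Adamts3 passed the filter through the LPS libraries alone, so its difference, too, was partly built in. Loxl2, another lysyl oxidase, fell from 154 ± 21.5 to 108 ± 1.32 FPKM, and Bmp1, the protease that removes the end propeptides of fibrillar procollagens, from 63.8 ± 7.01 to 46.0 ± 0.637 FPKM. Serpinh1, the collagen chaperone HSP47, was 1.28-fold lower (adjusted p = 0.00238), a call lost with quantile normalization (adjusted p = 0.213). P3h4, a subunit of a collagen-modifying complex, was 1.23-fold lower (adjusted p = 0.00467).

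Receptors and proteases of collagen were read from the same fit. Of 10 tested collagen receptors, of 13 in the table, 2 rose (background 20.1%) and 5 fell (background 19.0%), so the number that rose was at the background. The endocytic receptor Mrc2 rose from 67.7 ± 7.19 to 112 ± 1.69 FPKM and Antxr2 from 8.66 ± 1.79 to 15.5 ± 0.173 FPKM (SD, n = 3). Itga11, the integrin subunit for fibrillar collagens, fell from 327 ± 9.33 to 260.5 ± 7.09 FPKM, the receptor kinase Ddr1 from 20.4 ± 0.556 to 15.8 ± 0.836 FPKM, Cspg4, which binds type VI collagen, from 33.1 ± 3.66 to 20.9 ± 0.835 FPKM and Adgrg6, an adhesion receptor, from 13.9 ± 0.687 to 10.3 ± 0.449 FPKM. Of 11 tested collagen-degrading proteases, of 13 in the table, 5 rose (background 20.1%) and 1 fell (background 19.0%). Over the alternatives the number that rose ran from 4 to 7, the highest without untreated replicate 1. The collagenase Mmp13 stood at 9.35, 4.20 and 4.70 FPKM in untreated libraries 1 to 3 and 21.8, 24.4 and 21.9 FPKM in LPS libraries 1 to 3 and rose 3.61-fold (log2 fold change 1.85 ± 0.26 SE, adjusted p = 0.000931). The stromelysin Mmp3 stood at 2.45, 0.951 and 0.912 FPKM in untreated libraries 1 to 3 and 37.7, 40.1 and 31.5 FPKM in LPS libraries 1 to 3. The gelatinase Mmp9 stood at 1.76, 0.373 and 0.482 FPKM in untreated libraries 1 to 3 and 10.7, 10.2 and 7.91 FPKM in LPS libraries 1 to 3. In both, untreated replicate 1 was the highest of its group. Mmp3 rose 24.4-fold (adjusted p = 7.13e-05), and without that library its fold was 37.5-fold. For Mmp9 the fold was 10.6-fold (adjusted p = 0.00115) and 21.6-fold. Both reached 1 FPKM in only 1 untreated library, so they passed the filter through the LPS libraries and their differences were partly built in. Both are among the 5 proteases that rose. Mmp2, the abundant gelatinase, rose from 379 ± 61.9 to 578 ± 13.7 FPKM, and the membrane-anchored Mmp16 fell from 5.68 ± 0.365 to 4.18 ± 0.288 FPKM. Median log2 fold changes were -0.18 for the receptors and 0.22 for the proteases, beside 0.00012 for all tested genes.

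**Figure D5:**
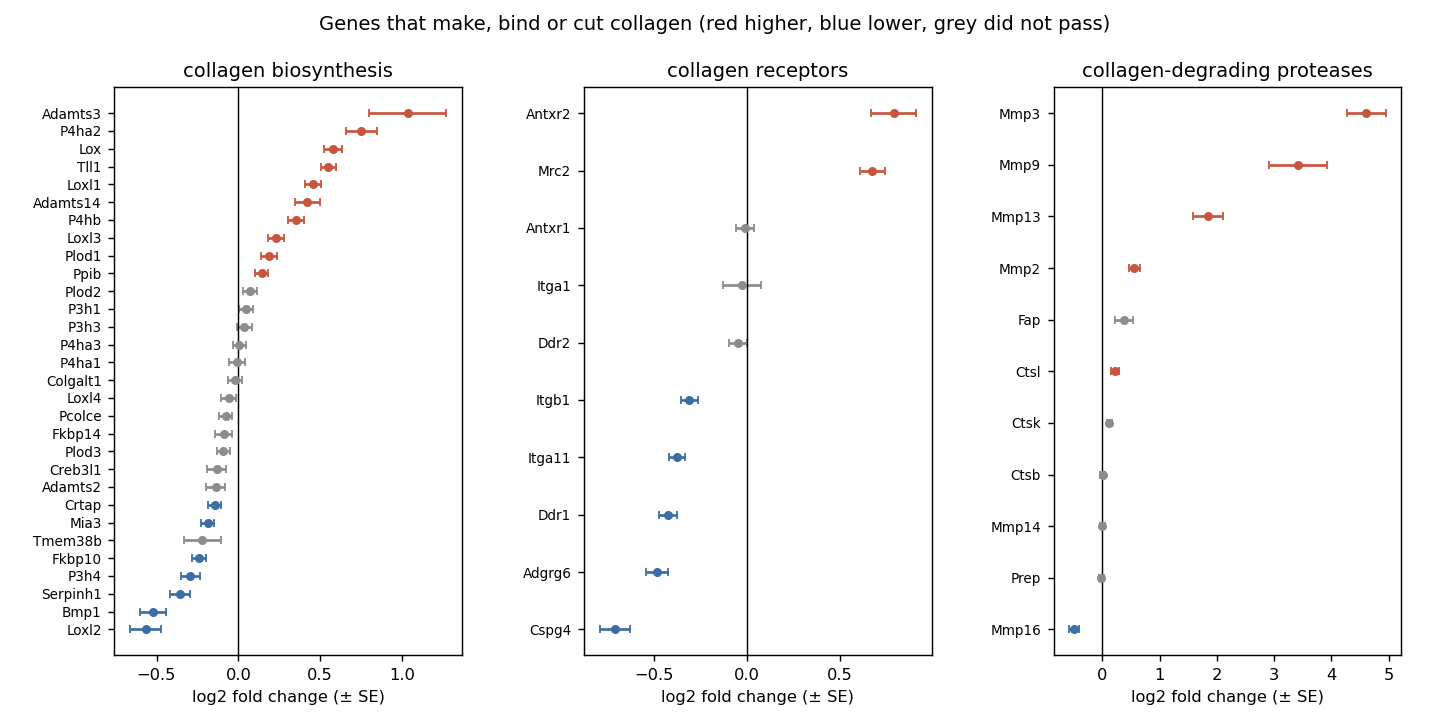
Log2 fold change, LPS over untreated, with standard error, of the tested genes that make, bind or cut collagen, with red for higher, blue for lower and grey for genes that did not pass. Biosynthesis genes spread to both sides of 0, most called receptors lie below 0, and Mmp3, Mmp9 and Mmp13 lie far above it.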

How the data were processed

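RNA sequencing of 6 libraries, 3 untreated and 3 LPS, was analysed from 1 deposited table. The submitters' processing notes name mRatBN7.2 as build and list HISAT2 2.2.1, cutadapt 1.9, StringTie 2.1.6, edgeR and DESeq2. Per the file headers, the FPKM values were made by the authors for each library. The deposited estimated counts per gene are whole numbers per the file headers' count columns, and how the authors derived them is not stated. Among values from 1 to 40, 31.9% to 32.9% were multiples of 4, where chance gives 25%.

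All genes past the filter (FPKM of 1 or more in 3 or more libraries) were fitted together by edgeR 4.0.16 (quasi-likelihood test, trimmed-mean factors, group as only term) in R 4.3.3, with Benjamini-Hochberg adjustment over all 11559 and a threshold of 0.05. Adjusted p-values are from this test unless named otherwise. Standard errors were computed from each gene's F statistic as the size of its log2 fold change over √F. The fit was tested on simulated counts. Alternatives were DESeq2 1.42.0, limma 3.58.1, other scalings and filters, counts divided by 4, a replicate block and leaving out each library.

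Every chain past the filter is named. Each partner list gives up to 4 called genes a direction, those that changed most among genes whose mean reached 1 FPKM in a group. Members and lists were chosen with earlier results of these data known. Read sharing between related genes was not tested, nor was the part of reads that came from mouse BV2 cells. Printed windows come from RefSeq (GRCr8), whose coordinates are not those of the table.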

Additional observations from a re-analysis of the deposited data

How the results depend on the processing

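Over 17 alternatives, 19 of the 24 tested chains kept their direction and call in every one that could be run, and none turned its direction. The exceptions were Col1a2, Col8a1, Col15a1, Col16a1 and Col20a1, described above. The number of chains lower with LPS ran from 14 with a filter of 5 FPKM, which left fewer chains to test, to 20 with no FPKM filter, and that of chains higher from 4 to 6. The median of all tested genes lay between -0.028 and 0.049 on the log2 scale in all settings. The split of all calls differed between settings. Of called genes, 51.3% were higher in the reported fit, 63.3% with limma on log2(FPKM + 1) and 44.7% with quantile normalization. The limma and quantile settings also changed the test and the input values, so they do not isolate scaling. In edgeR with other scalings the part was 50.8% (upper-quartile factors), 50.9% (DESeq2 size factors) and 46.7% (library sizes without collagen chains). The fall in the collagen share of the library was 2.66 percentage points in FPKM (LPS minus untreated -2.66), -4.35 in counts and -0.35 without Col1a1, Col1a2 and Col3a1. Without the FPKM filter 4 receptors rose and 2 proteases fell, and with quantile normalization 2 proteases fell, where 2 receptors rose and 1 protease fell in the reported fit. The biosynthesis list went from 10 higher and 7 lower to 8 and 10 with quantile normalization. The cause was not tested. Of 19 named partner genes, 18 kept their call throughout, and Serpinh1 lost it with quantile normalization. With replicate number as a block, 17 chains were lower and 6 higher, the added ones being Col8a1 and Col15a1. Equal numbers correlated at 0.069, 0.085 and 0.12 in their deviations from the group means, and each library correlated best with its own number, a hint from the data and not from the design, as the labels give no shared origin. The 18 chains under the filter rest on few fragments, which limits what can be detected in them at this depth.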
